A study of Mus musculus with 12 samples.

Results

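The 10 genes described here encode components of transforming growth factor beta (TGF-beta) signalling: the ligand gene Tgfb1, the receptor genes Tgfbr1, Tgfbr2, Tgfbr3, Acvrl1 and Acvr2a, the SMAD genes Smad3 and Smad7, and the corepressor genes Ski and Skil. They were chosen by name as a pathway, with earlier results of these data known. All 10 are among the 18193 genes measured. Each gene took the value of its brightest probe set, meaning the one whose mean across the 12 arrays was highest among those annotated to that gene only. Levels are log2 intensities, and a level may be compared between samples but not between genes.

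The study measured sorted mouse CD8 T cells on 12 Affymetrix arrays to find which of these cells divide after PD-1 blockade. The 5 naive samples are CD8 T cells from the spleen of naive mice. The other samples are PD-1+ CD8 tumour-infiltrating lymphocytes (TIL) from tumours of B16F10-GP, a mouse melanoma line. A total of 3 were sorted as Tim-3- 2B4-, called stem-like in the labels, and 4 as Tim-3+ 2B4+, called exhausted there. The labels give the strain as C57bl/c and the age as 6 to 8 weeks. Tumour-bearing mice had received 500000 melanoma cells in the flank, and TIL were sorted on days 17 to 19. No genetic change or drug is given for any group. The naive and TIL samples differ in organ and in the presence of a tumour as well as in cell state, and for these comparisons the 3 cannot be told apart. The labels do not say whether replicates are separate mice or pools, so p-values measure only the spread between these samples.

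TGF-beta1 is secreted in a latent form and is freed mainly by integrins. The active ligand binds the type II receptor encoded by Tgfbr2, which phosphorylates the type I receptor encoded by Tgfbr1. That receptor phosphorylates SMAD2 and SMAD3, which join SMAD4 and act on genes in the nucleus. SMAD7 blocks the type I receptor and is itself induced by the pathway, and SKI and SnoN, encoded by Ski and Skil, repress SMAD complexes on DNA. In CD8 T cells the pathway is known to restrain effector function and to raise the integrin CD103, encoded by Itgae.

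Promoter sequences show the DNA next to the start of the genes whose level changed, including the short element that SMAD proteins bind. RefSeq windows (build GRCm38.p6) from 250 bases before to 50 bases after a start matched 6 of the 10 genes, with 7 windows because Tgfbr1 has a pair of starts. The windows below belong to the 3 of these genes that passed the test in at least 1 comparison. They lie at chr7:25686752-25687051 on the plus strand for Tgfb1, at chr4:47352972-47353271 and chr4:47385966-47386265 on the plus strand for Tgfbr1, and at chr9:63757945-63758244 on the minus strand for Smad3. Capitals mark GTCT or its reverse complement AGAC.
Tgfb1: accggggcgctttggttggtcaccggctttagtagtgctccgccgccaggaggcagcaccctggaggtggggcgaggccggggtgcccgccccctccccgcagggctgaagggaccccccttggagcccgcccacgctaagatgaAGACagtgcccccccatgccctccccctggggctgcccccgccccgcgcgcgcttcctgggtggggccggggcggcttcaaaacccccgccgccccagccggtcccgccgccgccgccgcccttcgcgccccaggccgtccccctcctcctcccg
Tgfbr1, first start: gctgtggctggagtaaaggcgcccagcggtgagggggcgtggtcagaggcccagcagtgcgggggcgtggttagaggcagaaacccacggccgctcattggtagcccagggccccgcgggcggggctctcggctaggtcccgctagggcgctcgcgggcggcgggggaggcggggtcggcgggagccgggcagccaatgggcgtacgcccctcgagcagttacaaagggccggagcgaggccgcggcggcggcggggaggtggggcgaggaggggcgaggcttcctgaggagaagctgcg
Tgfbr1, second start: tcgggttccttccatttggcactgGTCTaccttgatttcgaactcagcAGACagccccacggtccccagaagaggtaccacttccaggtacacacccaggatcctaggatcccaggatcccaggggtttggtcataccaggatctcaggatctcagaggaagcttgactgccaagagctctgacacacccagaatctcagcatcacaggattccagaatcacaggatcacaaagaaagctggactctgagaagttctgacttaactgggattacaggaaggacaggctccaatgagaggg
Smad3: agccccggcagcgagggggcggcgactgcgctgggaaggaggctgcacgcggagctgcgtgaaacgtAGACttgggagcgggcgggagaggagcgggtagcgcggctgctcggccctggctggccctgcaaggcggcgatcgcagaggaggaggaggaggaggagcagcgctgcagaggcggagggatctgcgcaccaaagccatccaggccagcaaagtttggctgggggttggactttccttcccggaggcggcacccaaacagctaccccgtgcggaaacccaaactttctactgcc

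The Tgfb1 and Smad3 windows each held 1 match to GTCT on either strand, the first Tgfbr1 window 0 and the second 2. Of the 32851 promoter windows in the table, 88% held at least 1 match and the median was 2, so a match sets none of these windows apart. The windows of Tgfbr2, Acvr2a and Ski held 1, 3 and 0 matches. The palindrome of GTCT followed by its reverse complement, present in 0.213% of all windows, was in none of the 7, and neither was CACGTG, present in 7.15%. CAGACA, which contains AGAC and is present in 21% of all windows, was in the second Tgfbr1 window only. The first Tgfbr1 window and those of Tgfb1 and Smad3 were 74.7%, 77% and 67.7% G or C, against a median of 52.7% over all windows.

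The arrays fall into 2 sets that no label names. Set A is the first 5 arrays in the deposited order (naive replicates 1 and 2, Tim-3- replicate 1, Tim-3+ replicates 1 and 2) and set B is the other 7. After each gene was centred on its group means, pairs of arrays of 1 set correlated between 0.054 and 0.413 over genes, and pairs across sets between -0.385 and -0.122. In the brightest probe sets, set A lay below set B in Tgfb1, Tgfbr1, Tgfbr2, Tgfbr3, Smad3 and Ski. The shift was largest in Tgfbr3, where the mean deviation was -0.62 in set A against 0.45 in set B. Other probe sets of a gene did not always share this shift. Results are therefore also given from a fit that blocks on the array set and from each set alone. Within set A the Tim-3- group is 1 array, assumed to vary like the others. The 6 measured T cell and CD8 marker genes, such as Cd3d and Cd8a, were above log2 5.71 in every group, the level below which a mean may lie at background (percentile 40 of all genes).

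**Figure D1:**
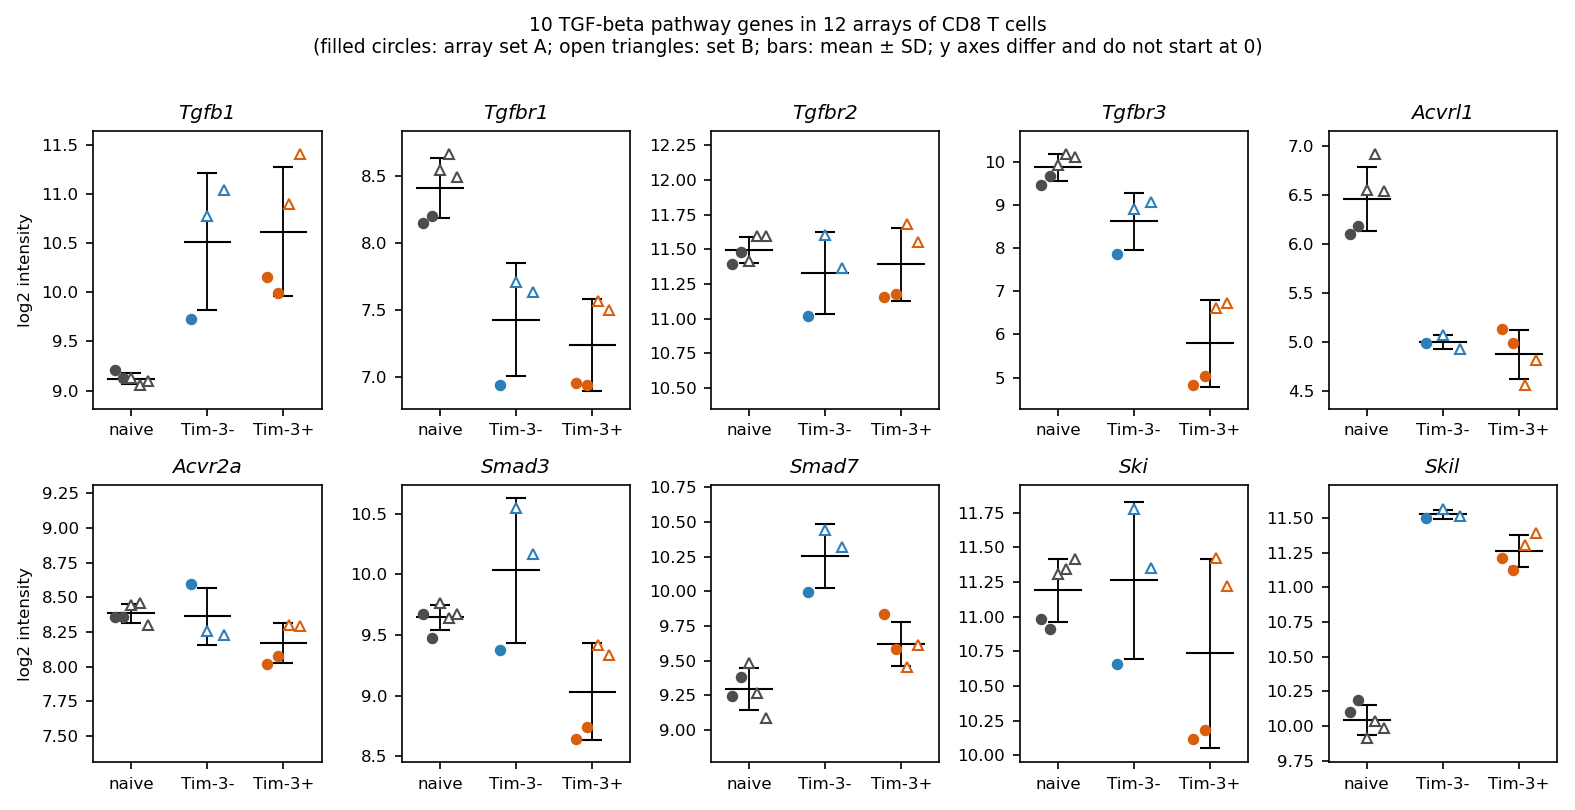
Log2 intensity of the 10 genes (1 panel each, y axes differ and do not start at 0) in the naive, Tim-3- TIL and Tim-3+ TIL arrays, with filled circles for set A, open triangles for set B and bars for mean ± SD. Tgfbr3 steps down from naive to Tim-3- to Tim-3+ with no overlap, while Smad7 is highest in the 3 Tim-3- arrays and Skil is higher in both TIL groups than in the 5 naive arrays.

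Between the TIL groups, the main contrast of the study, 3 of the 10 genes fell in Tim-3+ cells and 0 rose: Tgfbr3 by 7.09-fold, Smad3 by 2.00-fold and Smad7 by 1.55-fold. Calls are at an adjusted p below 0.05 in a limma fit of all 12 arrays, with Benjamini-Hochberg adjustment over the 18193 genes. Of all genes, 13.5% were called in this contrast, 7.77% higher and 5.77% lower. The arrays of the TIL groups did not overlap for Tgfbr3, Smad7 and Skil, as for 22.7% of all genes. Against naive cells, 6 genes were called in Tim-3- TIL (3 higher, 3 lower; 34.4% of all genes, 16.1% higher and 18.3% lower) and 7 in Tim-3+ TIL (3 higher, 4 lower; 41.5%, 20.1% and 21.4%). Tgfb1, Smad7 and Skil were the 3 higher genes in each, and Tgfbr1, Tgfbr3 and Acvrl1 were lower in each, with Smad3 the fourth lower gene in Tim-3+ TIL. A group of 6 genes in each TIL population did not overlap the naive arrays (35.1% of all genes for Tim-3- and 37.3% for Tim-3+ TIL). These comparisons share their naive arrays. The median log2 change of the 10 genes was -0.23 between the TIL groups, and 0.025 in Tim-3- and -0.33 in Tim-3+ TIL relative to naive cells, beside 0.011, -0.063 and -0.065 over all genes.

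**Figure D2:**
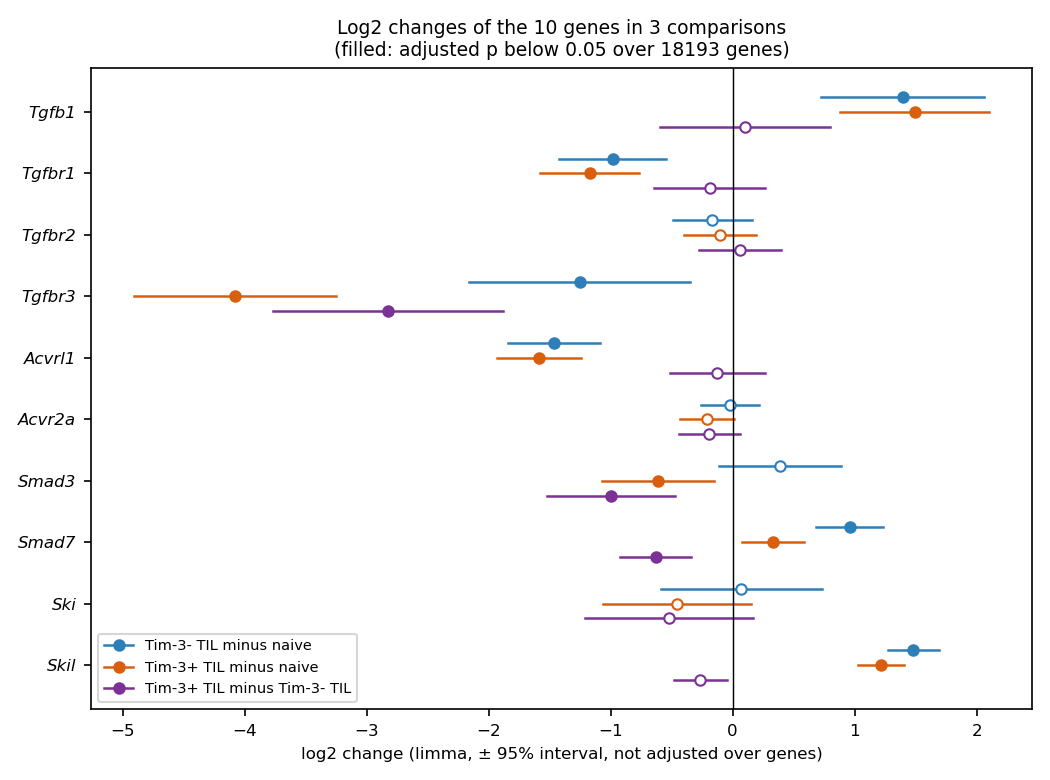
Log2 change (x axis, limma estimate with its 95% interval) of each of the 10 genes (y axis) in the 3 comparisons, filled where the adjusted p is below 0.05 over 18193 genes. Tgfbr3 has the lowest values, at -4.08 in Tim-3+ TIL relative to naive cells and -2.83 relative to Tim-3- TIL, and Skil stands at 1.48 and 1.22 against naive.

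Tgfb1 encodes the ligand TGF-beta1. Its log2 level was 9.21, 9.13, 9.12, 9.05 and 9.09 in naive replicates 1 to 5, 9.73, 10.78 and 11.04 in Tim-3- TIL, and 10.16, 9.99, 10.90 and 11.40 in Tim-3+ TIL. All 7 TIL arrays lay above all 5 naive arrays, while the TIL groups overlapped. The level rose by 1.39 ± 0.31 (SE, adjusted p = 0.00275) in Tim-3- TIL and by 1.49 ± 0.28 (adjusted p = 0.000644) in Tim-3+ TIL, folds of 2.63 and 2.81. In this probe set the size depended on the array set: set A alone gave 0.56 and 0.91, and set B alone 1.82 and 2.06. The second Tgfb1 probe set was higher in set A than in set B in Tim-3+ TIL (7.55 and 7.72 against 6.97 and 6.75). In Tim-3- TIL it was lower in set A (6.83 against 7.78 and 8.14). The TIL groups differed by 0.10, with a 95% interval from -0.60 to 0.79 (adjusted p = 0.904). As in any bulk measurement of sorted cells, a change in the share of expressing cells and a change in RNA per cell cannot be told apart.

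Tgfbr1, which encodes the type I receptor ALK5, was lower in both TIL groups. It stood at 8.15, 8.20, 8.55, 8.66 and 8.49 in naive cells, at 6.94, 7.71 and 7.63 in Tim-3- TIL, and at 6.95, 6.94, 7.57 and 7.50 in Tim-3+ TIL. Every TIL array lay below every naive array. The fall was 0.98 ± 0.20 (adjusted p = 0.00168) in Tim-3- TIL and 1.17 ± 0.19 (adjusted p = 0.000142) in Tim-3+ TIL, or 1.98-fold and 2.25-fold, and both calls held within each array set (log2 changes from -1.23 to -0.90). The TIL groups overlapped and differed by -0.19 (95% interval -0.65 to 0.27).

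Tgfbr2, which encodes the ligand-binding type II receptor, passed no test. Its level was 11.39 to 11.60 in naive cells (median 11.48), 11.02, 11.60 and 11.37 in Tim-3- TIL, and 11.16, 11.18, 11.68 and 11.55 in Tim-3+ TIL. In this brightest probe set all 3 groups overlapped, and the low TIL arrays were those of set A. The 95% intervals of the log2 change were -0.49 to 0.16 for Tim-3- and -0.40 to 0.19 for Tim-3+ against naive, and -0.27 to 0.40 between the TIL groups. Of the pair of chains that transmit the signal, Tgfbr1 was called lower in both TIL groups and Tgfbr2 in neither. The difference between the genes was not tested.

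Tgfbr3, which encodes the coreceptor betaglycan, a protein that presents TGF-beta to the type II receptor, had the lowest log2 changes of the 10 genes in both comparisons that involve Tim-3+ TIL. It was at 9.47, 9.68, 9.94, 10.18 and 10.13 in naive cells, at 7.86, 8.93 and 9.09 in Tim-3- TIL, and at 4.82, 5.05, 6.61 and 6.74 in Tim-3+ TIL. The 3 groups did not overlap, and Tim-3+ replicates 1 and 2 lay below log2 5.71. From Tim-3- to Tim-3+ TIL it fell by 2.83 ± 0.44 (adjusted p = 0.000600). The change was also called when the fit blocked on the array set (-2.64), in set A alone (-2.93) and in set B alone (-2.34). Tim-3+ TIL lay 16.9-fold below naive cells (log2 change -4.08 ± 0.39, adjusted p = 8.99e-07). The fall in Tim-3- TIL against naive, -1.25 ± 0.42 (adjusted p = 0.0324), was lost without naive replicate 3 (adjusted p = 0.0568), 4 (0.0643) or 5 (0.0618) or Tim-3- replicate 1, which left -0.87 (0.159). Each set alone called it, at -1.71 (set A) and -1.08 (set B).

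Endothelial cells also express Tgfbr3 and Acvrl1, and a summed level of endothelial markers moved with Tgfbr3. The linear sum of the 6 markers was 834 to 1087 in naive cells, 362 to 388 in Tim-3- TIL and 171 to 201 in Tim-3+ TIL. A single gene, Pecam1, which T cells also express, carried this at 9.77, 8.17 and 6.71, whereas the 5 others (Cdh5, Kdr, Tek, Emcn and Vwf) were below log2 5.71 in every group.

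Acvrl1 encodes the type I receptor ALK1, best known from blood vessels, and Acvr2a encodes a type II receptor for activins. Acvrl1 was at 6.11, 6.19, 6.56, 6.92 and 6.54 in naive cells, at 4.99, 5.08 and 4.93 in Tim-3- TIL, and at 5.14, 4.99, 4.55 and 4.81 in Tim-3+ TIL. All TIL arrays were below log2 5.71 and all naive arrays above it. The falls of 1.46 ± 0.17 (adjusted p = 1.44e-05) and 1.59 ± 0.16 (adjusted p = 1.73e-06) may therefore be understated. Each set alone called them (log2 changes from -1.99 to -1.09). The TIL groups, both dim, were at -0.12 to each other (95% interval -0.52 to 0.27). The linear sum of the 5 measured B cell markers was also higher in naive cells, at 573 to 761, than in Tim-3- TIL (218 to 233) and Tim-3+ TIL (187 to 206), with 3 of 5 below log2 5.71 in naive cells and 4 of 5 in each TIL group. Cd79b carried it at 8.89, 6.37 and 5.59, and its part in the Acvrl1 and Tgfbr1 values was not tested.

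Acvr2a ranged from 8.30 to 8.46 in naive cells (median 8.36), stood at 8.60, 8.26 and 8.23 in Tim-3- TIL, and ranged from 8.02 to 8.30 in Tim-3+ TIL. The groups overlapped and no comparison was called. The 95% interval between the TIL groups was -0.44 to 0.059. With the mean of its probe sets in place of the brightest, Acvr2a was called lower in Tim-3+ than in Tim-3- TIL (-0.36, adjusted p = 0.0321).

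Smad3 encodes a receptor-activated SMAD, the transcription factor that carries the TGF-beta signal. It was at 9.67, 9.48, 9.76, 9.64 and 9.68 in naive cells, at 9.38, 10.54 and 10.17 in Tim-3- TIL, and at 8.64, 8.75, 9.41 and 9.33 in Tim-3+ TIL. Tim-3+ arrays all lay below the naive arrays, and Tim-3- replicate 1 lay among the Tim-3+ arrays. Smad3 fell from Tim-3- to Tim-3+ TIL by 1.00 ± 0.24 (adjusted p = 0.0135). Leaving out Tim-3- replicate 2 (-0.74, adjusted p = 0.0808) or 3 (-0.93, 0.0564) ended the call, as did set A alone (-0.69, 0.0518) and a fit of the TIL groups only (0.0633). Set B alone gave -0.98 (adjusted p = 0.00347), and the fit that blocked on array set gave -0.91 (0.00188).

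Against naive cells the Smad3 values depended on single arrays. In Tim-3+ TIL it was lower by 0.61 ± 0.21 on the log2 scale (adjusted p = 0.0336), and the call ended on leaving out naive replicate 1, 3, 4 or 5 or Tim-3+ replicate 1 or 2 (adjusted p from 0.0558 to 0.108). Set A alone gave -0.88 (adjusted p = 0.00352) and set B -0.32 (0.0862). In Tim-3- TIL it was at 0.39 ± 0.23 (adjusted p = 0.231), and the sets opposed each other, with -0.20 in set A and 0.67 (adjusted p = 0.00412) in set B. Without Tim-3- replicate 1 that change was 0.71 and passed (adjusted p = 0.0147).

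Smad7 encodes the inhibitory SMAD. It was at 9.25, 9.38, 9.48, 9.27 and 9.09 in naive cells, at 9.998, 10.44 and 10.32 in Tim-3- TIL, and at 9.83, 9.59, 9.45 and 9.62 in Tim-3+ TIL. The 3 Tim-3- arrays were the highest of the 12, and the Tim-3+ arrays overlapped the naive ones at replicate 3. Smad7 rose 1.94-fold in Tim-3- TIL against naive (log2 change 0.96 ± 0.13, adjusted p = 4.28e-05), and each set alone called it, at 0.68 (set A) and 1.10 (set B). It fell by 0.63 ± 0.13 from Tim-3- to Tim-3+ TIL (adjusted p = 0.00583), a call that held without any 1 of the 12 arrays. Set A alone gave -0.29 (adjusted p = 0.359) and set B -0.85 (0.00899). The rise of 0.33 ± 0.12 in Tim-3+ TIL against naive (adjusted p = 0.0386) ended on leaving out naive replicate 1, 4 or 5 or Tim-3+ replicate 1, 2 or 4 (adjusted p from 0.0627 to 0.121) and in each set alone (adjusted p = 0.0735 and 0.184). It was also lost with the replicate number as a block (0.28, adjusted p = 0.117) and with quantile normalization applied again (0.26, adjusted p = 0.105).

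Regulatory T cell markers were examined beside Smad7. Foxp3, the transcription factor of these cells, was at 7.09 ± 0.18 in naive cells, 7.94 ± 0.089 in Tim-3- TIL and 6.93 ± 0.16 in Tim-3+ TIL (SD), and so was highest where Smad7 was. The linear sum of the 5 measured CD4 and regulatory T cell markers was 475 to 586, 2897 to 3311 and 2545 to 3398 in these groups. Ikzf2 carried most of it at 7.28, 10.92 and 10.82, Cd4 was at 6.51, 7.34 and 7.50, and no marker of the 5 lay below log2 5.71 in TIL. The linear sum of the 4 measured NK and innate markers was 412 to 538, 1720 to 1879 and 857 to 1148, which is also the order of the Smad7 and Bambi means. Eomes, which CD8 T cells also express, carried this at 8.61, 10.79 and 9.82, and the 3 others were below log2 5.71 in every group. The part of regulatory T cells in the Smad7 values was not tested.

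Ski and Skil encode related corepressors, of which Skil was called against naive cells and Ski was not. Skil was at 10.10, 10.19, 9.91, 10.04 and 9.98 in naive cells, at 11.50, 11.56 and 11.52 in Tim-3- TIL, and at 11.21, 11.13, 11.31 and 11.39 in Tim-3+ TIL. All TIL arrays lay above all naive arrays, and the TIL groups did not overlap each other. Skil rose by 1.48 ± 0.096 (2.79-fold, adjusted p = 3.64e-08) in Tim-3- TIL and by 1.22 ± 0.089 (2.32-fold, adjusted p = 5.69e-08) in Tim-3+ TIL, and each call held within both array sets. The difference between the TIL groups, -0.27 ± 0.10, did not pass (adjusted p = 0.109). It passed with an offset of 16 added to the linear values (-0.26, adjusted p = 0.0414).

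Ski was at 10.98, 10.91, 11.31, 11.34 and 11.41 in naive cells, at 10.66, 11.78 and 11.35 in Tim-3- TIL, and at 10.12, 10.18, 11.42 and 11.22 in Tim-3+ TIL. Set A arrays were the low ones in each group. No comparison was called, with 95% intervals of -0.59 to 0.73 (Tim-3- against naive), -1.06 to 0.15 (Tim-3+ against naive) and -1.21 to 0.17 (between TIL groups). When the fit blocked on array set, Ski passed in Tim-3+ TIL relative to naive at -0.37 (adjusted p = 0.0454), with -0.79 in set A (0.00318) and -0.032 in set B (0.885).

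Other probe sets of the same genes gave a check within each array. The 10 genes have 24 probe sets, of which 23 name a single gene and 1 names both Orc4 and Acvr2a. Over the 23, 6 fell between the TIL groups and 0 rose. Relative to naive cells, Tim-3- TIL had 6 higher and 7 lower, and Tim-3+ TIL 5 higher and 9 lower. The share of all 34945 probe sets called in their own fit is not given here, so these counts have no background beside them. Probe sets of the same gene read the same samples and are not independent. No gene had probe sets called in opposite directions. The second Tgfbr3 probe set fell by 2.62 ± 0.23 between the TIL groups (adjusted p = 4.51e-06) and by 1.15 ± 0.22 in Tim-3- TIL against naive (adjusted p = 0.000953), where the brightest depended on single arrays. The second Smad7 probe set fell by 0.63 ± 0.13 between the TIL groups (adjusted p = 0.00425). Against naive it rose by 0.85 in Tim-3- TIL (adjusted p = 8.36e-05), but its change of 0.21 in Tim-3+ TIL was not called (0.150). The second Skil probe set rose by 1.84 and 1.95 against naive. Smad3 was less uniform: its other probe sets were at -0.74 (adjusted p = 0.0277) and -0.52 (0.287) between the TIL groups, and at -0.25 and -0.41 in Tim-3+ TIL against naive, neither of them called. The second probe set of Ski fell by 0.84 in Tim-3+ TIL against naive (adjusted p = 0.0284).

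**Figure D3:**
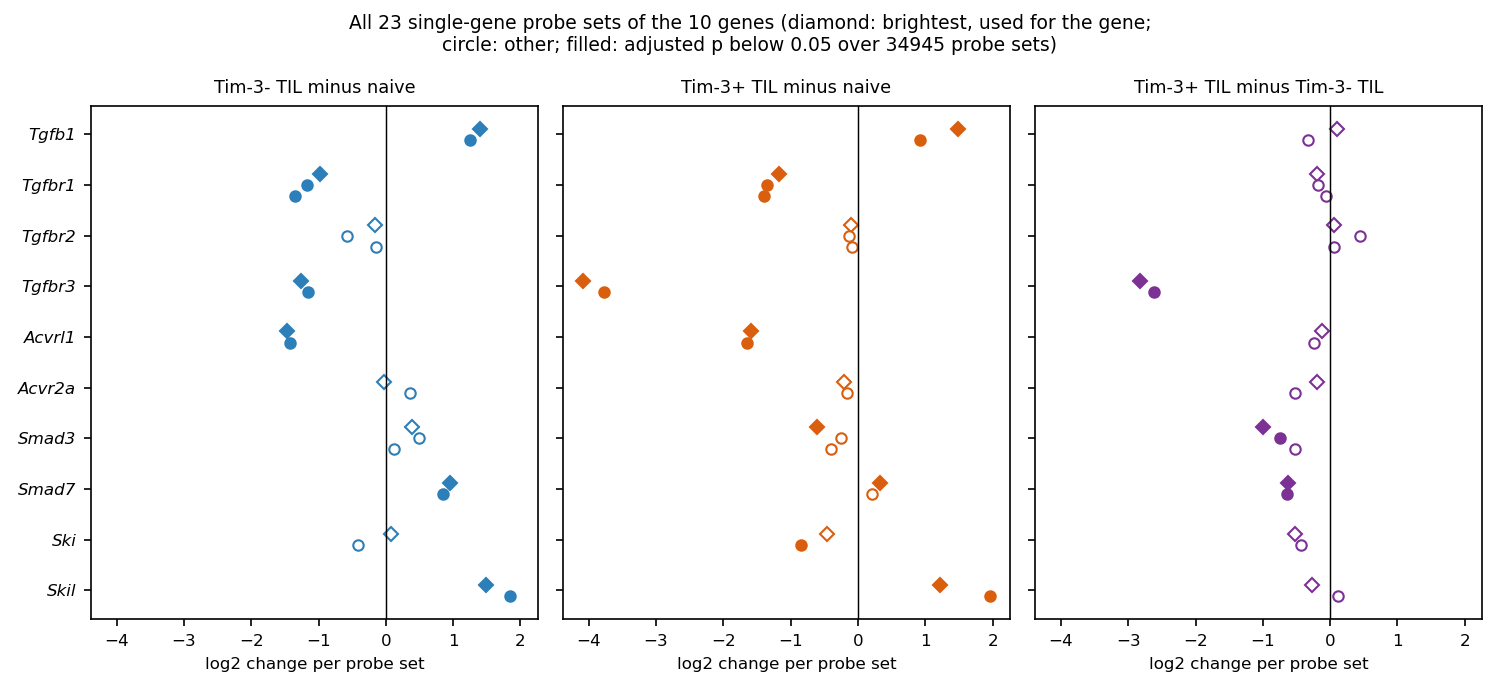
Log2 change (x axis) of all 23 single-gene probe sets of the 10 genes (y axis) in the 3 comparisons, with a diamond for the brightest probe set and a circle for the others, filled where the adjusted p is below 0.05 over 34945 probe sets. Both Tgfbr3 probe sets are filled in all 3 panels. The 3 Tgfbr2 probe sets, 1 of which may lie at background, are open in all 3.

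A list of 90 other genes of the TGF-beta superfamily pathway, grouped by role, gave 86 measured genes. From Tim-3- to Tim-3+ TIL 1 rose and 11 fell, with a median change of -0.066, beside the 7.77% and 5.77% of all genes. The number called was 8 without Tim-3- replicate 3 and 20 when the fit blocked on array set. Relative to naive cells, Tim-3- TIL had 20 higher and 17 lower genes (median -0.051). Tim-3+ TIL had 20 higher and 25 lower (median -0.12). Of all genes, 16.1% were higher and 18.3% lower in Tim-3- TIL (median -0.063). In Tim-3+ TIL 20.1% were higher and 21.4% lower (median -0.065). The same shares apply to the list counts below. Between the TIL groups, 23 of the 86 genes had means that may lie at background in both groups. Against naive these were 23 for Tim-3- and 22 for Tim-3+ TIL. They include 8 of the 12 latency and activation genes in each comparison.

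Among 13 other ligands, Tgfb3, encoding TGF-beta3, rose by 1.22 ± 0.32 from Tim-3- to Tim-3+ TIL (adjusted p = 0.0190). The call ended on leaving out Tim-3- replicate 3 (adjusted p = 0.101) or Tim-3+ replicate 3 or 4 and in set A alone (0.59, adjusted p = 0.414), and the Tim-3- mean of 5.22 may lie at background. Bmp7, a bone morphogenetic protein gene, fell by 0.61 ± 0.13 (adjusted p = 0.00509), with -0.41 in set B alone (adjusted p = 0.0527). Of 12 latency and activation genes, Itgav encodes a chain of integrins that free TGF-beta from its latent form. It was 8.72 ± 0.069 in naive cells, 11.005 ± 0.14 in Tim-3- TIL and 11.22 ± 0.24 in Tim-3+ TIL (SD). Against naive it rose by 2.29 and 2.50. Itgb8, another integrin chain gene, rose by 1.74 and 1.25, but its means of 1.63, 3.36 and 2.88 in these groups may lie at background. Nrros, which anchors latent TGF-beta on myeloid cells, fell by 1.64 and 2.13.

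Of 12 other receptors and coreceptors, 2 fell and 0 rose between the TIL groups. Bambi, a pseudoreceptor that blocks signalling and is induced by it, was at 5.10 to 6.02 in naive cells (median 5.34), at 8.11, 7.68 and 7.86 in Tim-3- TIL, and at 6.23, 6.68, 6.55 and 6.44 in Tim-3+ TIL. The 3 groups did not overlap, with Tim-3- TIL highest and naive cells lowest, which is also the order of the Smad7 means. Bambi fell by 1.41 ± 0.20 from Tim-3- to Tim-3+ TIL (adjusted p = 0.000244). Acvr1b, the type I receptor ALK4 for activin, was at 8.998 ± 0.12 in naive cells, 6.49 ± 0.27 in Tim-3- TIL and 5.66 ± 0.31 in Tim-3+ TIL, and fell between the TIL groups by 0.84 ± 0.17 (adjusted p = 0.00367; 0.0790 in set A alone), to a mean that may lie at background. Relative to naive cells, 5 of the 12 were higher and 3 lower in Tim-3- TIL, and 5 higher and 4 lower in Tim-3+ TIL. Nrp1, a coreceptor that also binds semaphorins, rose by 4.98 and 4.64 from a naive mean of 5.37, which may lie at background.

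Of the 6 other SMAD genes, 1 fell between the TIL groups and 3 fell in each TIL group against naive. In these comparisons 0 rose. Of all genes, 7.77% rose between the TIL groups, 16.1% in Tim-3- and 20.1% in Tim-3+ TIL against naive. A list of 6 genes is too short to set 0 apart from these shares. In each comparison 2 of the 6 had means that may lie at background in both groups. Smad4, the partner of all receptor-activated SMADs, was at 10.77 to 10.90 in naive cells, 9.54, 9.92 and 9.59 in Tim-3- TIL, and 9.22, 9.50, 9.69 and 9.81 in Tim-3+ TIL. It fell by 1.15 ± 0.13 and 1.28 ± 0.12 against naive (adjusted p = 1.05e-05 and 9.44e-07), and the TIL groups overlapped. Smad2, the other SMAD of the TGF-beta branch, was at 9.35 ± 0.096, 9.38 ± 0.41 and 9.32 ± 0.20 and was called in no comparison. With the mean of its probe sets, it was called lower in Tim-3+ TIL against naive (-0.35, adjusted p = 0.0165).

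Of 23 regulators of receptors and SMADs, 4 fell and 0 rose between the TIL groups. Ldlrad4, a membrane protein that holds back SMAD2 and SMAD3 and is induced by TGF-beta, was at 7.74 ± 0.31 in naive cells, 9.18 ± 0.59 in Tim-3- TIL and 7.46 ± 0.65 in Tim-3+ TIL, a fall of 1.72 ± 0.33 (adjusted p = 0.00290). Hipk2, a nuclear kinase, fell by 1.41 ± 0.18 (adjusted p = 0.000116). Against naive, 7 fell in Tim-3- and 11 in Tim-3+ TIL, and 3 rose in each. The ubiquitin ligase genes Smurf2 and Nedd4l, whose products mark receptors and SMADs for degradation, were among the lower ones, at -1.22 and -2.03 in Tim-3- TIL and -1.42 and -2.91 in Tim-3+ TIL, where the Nedd4l mean of 5.65 may lie at background.

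Of 11 nuclear partners and corepressors, 2 fell between the TIL groups. Tgif1, a homeobox corepressor of SMADs, was at 8.79 ± 0.20 in naive cells, 10.98 ± 0.072 in Tim-3- TIL and 9.86 ± 0.12 in Tim-3+ TIL, and fell between the TIL groups by 1.12 ± 0.13 (adjusted p = 3.60e-05). Zeb1, a zinc finger repressor that binds SMADs, fell by 1.08 ± 0.24 (adjusted p = 0.00766). Its relative Zeb2 rose by 6.27 and 6.75 against naive, from a naive mean of 3.05, which may lie at background. The 9 genes of the non-SMAD branch, such as the kinase gene Map3k7, had 0 calls between the TIL groups in limma.

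**Figure D4:**
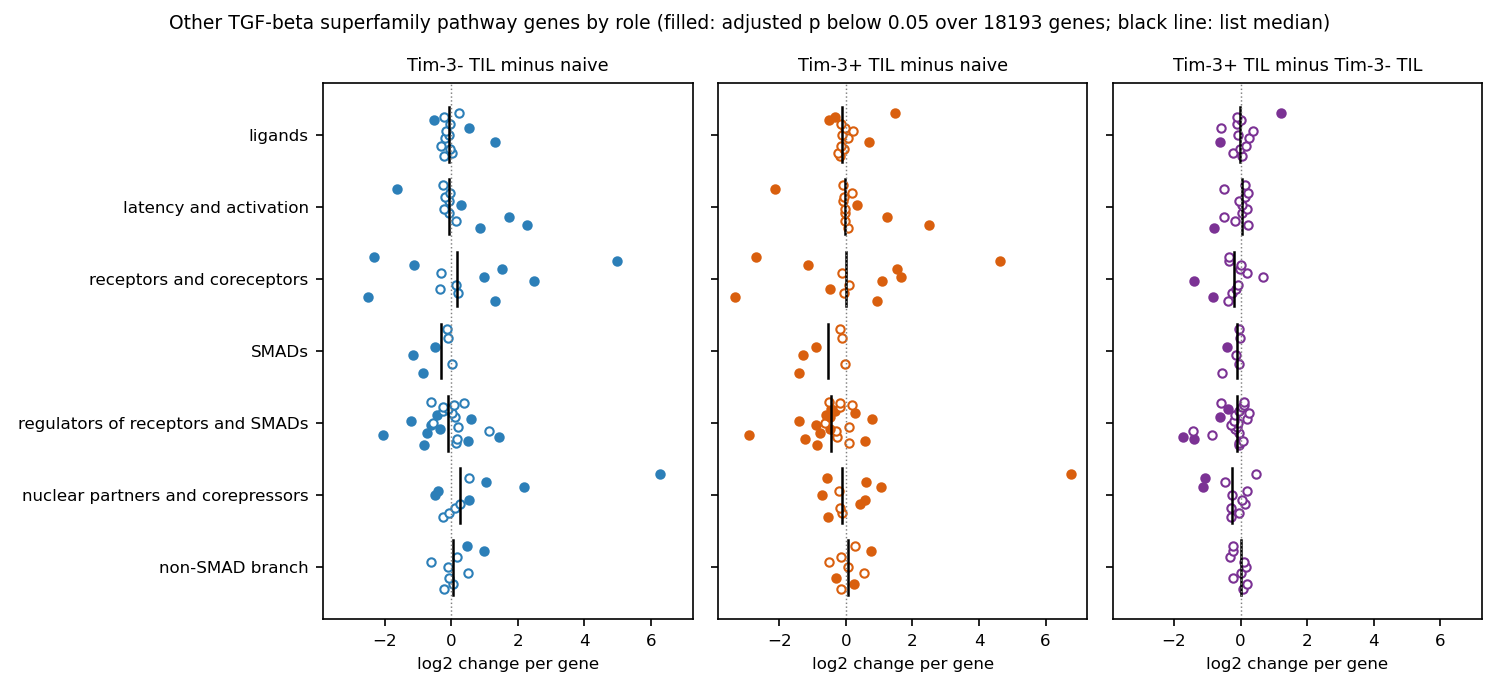
Log2 change (x axis) of the 86 other measured pathway genes by role (y axis) in the 3 comparisons, 1 point per gene, filled where the adjusted p is below 0.05 over 18193 genes, with a black line at each list's median. Between the TIL groups 11 of the 12 filled points lie below 0, and the point above 0 is Tgfb3.

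Genes that TGF-beta is known to raise in T cells did not move in 1 direction. Of 13 measured, 2 rose and 4 fell from Tim-3- to Tim-3+ TIL, with a median of -0.73. Itgae, the CD103 gene, was at 11.86 to 12.18 in naive cells (median 12.15), at 9.64, 9.97 and 9.31 in Tim-3- TIL, and at 6.05, 6.17, 8.13 and 8.01 in Tim-3+ TIL. The 3 groups did not overlap and stepped down in that order, as for Tgfbr3. Itgae fell by 2.42 ± 0.41 in Tim-3- TIL against naive (adjusted p = 0.000361) and fell by 2.55 ± 0.43 from Tim-3- to Tim-3+ TIL (adjusted p = 0.00116), a step called in each set alone (-3.53 and -1.57). Cd9, a tetraspanin gene, had the other shape: it was at 6.99 ± 0.35 in naive cells, 8.63 ± 0.22 in Tim-3- TIL and 6.92 ± 0.41 in Tim-3+ TIL, and fell between the TIL groups by 1.71 ± 0.23 (adjusted p = 0.000195). The cell cycle inhibitor genes Cdkn1a and Cdkn2b were the 2 that rose, by 1.71 ± 0.16 and 2.07 ± 0.22, the latter from a Tim-3- mean of 5.31, which may lie at background. Relative to naive cells, 7 of the 13 were higher and 1 lower in Tim-3- TIL, and 5 higher and 2 lower in Tim-3+ TIL. Itgae was the 1 lower gene in Tim-3- TIL. Among the higher ones, Rgs16 rose by 5.33 in Tim-3- and 5.84 in Tim-3+ TIL, and Cdkn1a by 1.38 and 3.09. Ahr rose by 2.53 and 1.80, from a naive mean of 5.53, which may lie at background.

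**Figure D5:**
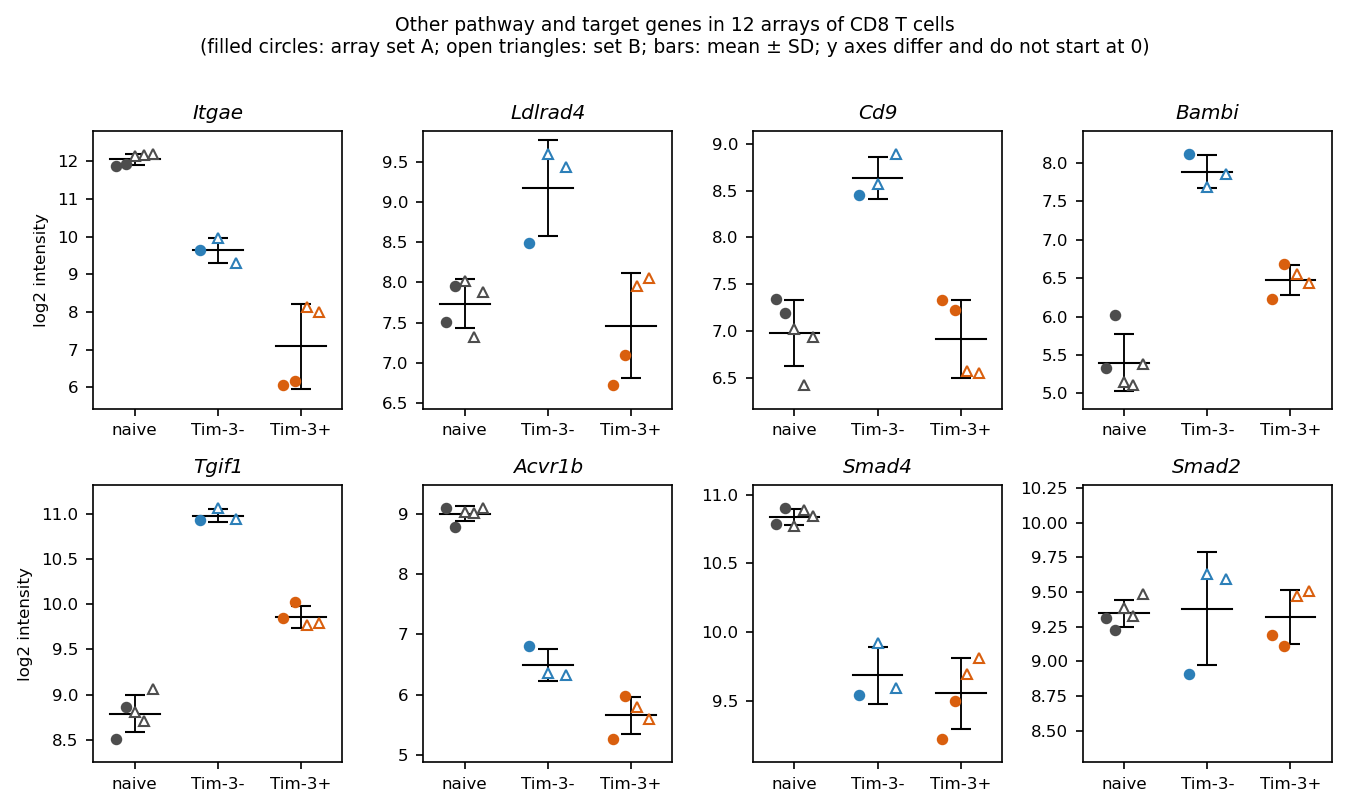
Log2 intensity of 8 other pathway and target genes (1 panel each, y axes differ and do not start at 0) in the naive, Tim-3- TIL and Tim-3+ TIL arrays, with filled circles for set A, open triangles for set B and bars for mean ± SD. Itgae and Acvr1b step down over the 3 groups, Ldlrad4, Cd9, Bambi and Tgif1 are highest in the 3 Tim-3- arrays, and Smad4 is lower in both TIL groups than in naive cells.

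For the 7 genes called in at least 1 comparison, the most similar profiles were found by the smallest root mean square difference over the 12 arrays after each gene was centred on its own mean. The arrays share their group and set, so the values are a description. Smad3 lay nearest to Zeb1 (0.131, in log2 units) and Antxr2 (0.161), Tgfbr1 to Rprd2 (0.107) and S1pr4 (0.119), and Skil to Fbxo33 (0.119) and C730049O14Rik (0.122). Smad7 lay nearest to P4ha2 (0.163) and Hook2 (0.175), Acvrl1 to Lrrc1 (0.190) and Lman2l (0.195), and Tgfb1 to Cabyr (0.210) and Tex2 (0.214). Tgfbr3 had no profile nearer than Cpm (0.422) and Pde2a (0.433). The genes' own SDs over the 12 arrays were 1.95 for Tgfbr3, 0.87 for Tgfb1, 0.83 for Acvrl1 and 0.70 for Skil. They were 0.64 for Tgfbr1, 0.53 for Smad3 and 0.43 for Smad7. Differences therefore cannot be ranked between genes without regard to these SDs. The P4ha2 group means of 4.66, 5.44 and 4.99 may lie at background. So may the Tim-3+ means of Cpm (4.23) and Lrrc1 (5.66) and the naive mean of Cabyr (5.67).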

How the data were processed

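Values are array intensities on the linear scale, which the authors deposited per probe set for 12 Affymetrix arrays. The submitters' processing notes name RMA and affy, with versions not given in the sources used here. Array medians were 58.8 to 63.0, and precision is limited by how few arrays there are. Analyses used the log2 of these values. Of 45101 probe sets, 34945 name 1 gene in the array annotation, 932 several and 9160 none, and 64 are controls. Genes with more than 1 probe set (9010) took the one with the highest mean over the arrays.

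All 12 arrays entered a single model with a mean per group in limma 3.58.1 (R 4.3.3). Its contrasts were moderated by eBayes at default settings and tested two-sided. Errors of changes are SE, and those of levels are SD over the group's arrays. The 95% intervals are not adjusted over genes. The fit was tested on simulated data. Python 3.11.15 with pandas 2.3.3, numpy 2.4.6 and matplotlib 3.10.9 searched promoters and drew figures.

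The 10 genes, the lists and the alternatives were chosen with earlier results of these data known. Named were the 10 genes with their array values, and Smad2, Smad4 and Itgae. Also named were the markers with the highest mean and the 2 nearest profiles per called gene. Other named genes came from up to 3 per list and comparison with the smallest adjusted p below 0.05. Not all of these are printed, and which ones are was a further choice. Chosen after their values were seen were Foxp3, Cd4 and the endothelial markers other than Pecam1. Alternatives were the probe set rule, normalization, a filter on dim genes, an offset, moderation, array weights, the samples fitted, replicate numbers and array sets as blocks, each set alone, a minimum of 2-fold, and leaving out each array. Same-numbered arrays of different groups correlated between -0.150 and 0.413 (median 0.197), and the other pairs between -0.385 and 0.303 (median -0.139). Most same-numbered pairs also share an array set, so whether replicate numbers pair the samples cannot be told.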

Additional observations from a re-analysis of the deposited data

How the results depend on the processing

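The direction of every call among the 10 genes was kept under all alternatives run; Acvrl1 was removed by the filter on dim genes. Over the alternatives other than leaving out arrays, 379 of the values of the 10 genes kept direction and call, 16 lost a call, 7 gained 1 and 15 changed sign, none of the 15 called in the fit reported. A minimum of 2-fold left 1 of the 10 genes (Tgfbr3), 6 of the other pathway genes and 775 genes called between the TIL groups, 2183 genes and 18 pathway genes for Tim-3- against naive, and 2598 and 18 for Tim-3+ against naive. Between the TIL groups, array weights called 19 pathway genes and a fit that blocked on array set 20, and in set A alone, where fewer arrays were fitted, 1 of the 10 genes and 1590 genes were called. Leaving out an array gave 2 to 3 of the 10 genes between the TIL groups, 5 to 6 for Tim-3- and 5 to 7 for Tim-3+ against naive, and 8 to 16, 33 to 38 and 42 to 47 pathway genes.

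With the replicate number as a block, 3, 6 and 6 of the 10 genes were called in these comparisons and the call of Smad7 in Tim-3+ TIL against naive was lost (0.28, adjusted p = 0.117); among the other named genes, that block also ended the calls of Tgfb3 between the TIL groups (adjusted p = 0.0585), of Inhba in Tim-3- TIL and of Map3k7 in Tim-3+ TIL against naive. Whether replicate numbers pair the samples cannot be told from these data.

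Sign changes concerned values that were not called in the fit reported, such as Skil between the TIL groups (-0.27) and Smad3 in Tim-3- TIL (0.39), and the cause was not tested. Between the TIL groups Tgfb1 was -0.12 with the mean of its probe sets, -0.087 with array weights and -0.019 with the replicate block, and Skil was 0.11 with its most variable probe set. Within set A Tgfbr1 was 0.0017, Acvrl1 0.075 and Smad2 0.24, and within set B Acvr2a was 0.051. For Tim-3- against naive, the mean of probe sets gave Acvr2a 0.17, Ski -0.17 and Smad2 -0.12, the most variable probe set 0.36, -0.41 and -0.27, and set A 0.24, -0.29 and -0.36 with Smad3 at -0.20. Quantile normalization gave Smad2 -0.0082. For Tim-3+ against naive, Smad2 was 0.022 with median centring, 0.0082 with the replicate block, 0.0074 when the fit blocked on array set and 0.089 in set B alone, where Tgfbr2 was 0.081. Leaving out arrays moved Tgfb1 from -0.29 to 0.36, Tgfbr2 from -0.092 to 0.20 and Smad2 from -0.30 to 0.066 between the TIL groups. It moved Acvr2a from -0.14 to 0.045, Ski from -0.19 to 0.37 and Smad2 from -0.092 to 0.27 for Tim-3- against naive, and Smad2 from -0.088 to 0.043 for Tim-3+ against naive.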

Other observations

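Genes that TGF-beta is known to lower in CD8 T cells also moved in both directions. Of 17 measured, 5 rose and 6 fell from Tim-3- to Tim-3+ TIL, with a median of 0.11, beside 7.77% and 5.77% of all genes. Gzmb, which encodes the cytotoxic protease granzyme B, rose against naive by 4.41 ± 0.29 in Tim-3- TIL and by 7.08 ± 0.26 in Tim-3+ TIL. From Tim-3- to Tim-3+ TIL it rose by 2.67 ± 0.30 (adjusted p = 3.79e-05). S1pr1, the receptor that lets T cells leave tissue, fell by 5.55 ± 0.41 between the TIL groups (adjusted p = 7.22e-07), to a Tim-3+ mean of 4.67, which may lie at background, so the size is uncertain. Klf2, a transcription factor that drives S1pr1, fell by 1.80 ± 0.18. Itgb1, an integrin chain, fell by 1.42 ± 0.10. Relative to naive cells, 11 of the 17 were higher and 5 lower in Tim-3- TIL (median 2.19), and 10 higher and 5 lower in Tim-3+ TIL (median 2.28). Ifng, the interferon gamma gene, and Fasl, the death ligand gene, rose by 6.92 and 6.35 in Tim-3- TIL from naive means of 3.75 and 3.28, which may lie at background.

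Summed marker levels of further cell types were also measured. The linear sum of 11 monocyte and macrophage markers was 354 to 434 in naive cells, 520 to 610 in Tim-3- TIL and 431 to 543 in Tim-3+ TIL, with 9 of the 11 below log2 5.71 in every group. Platelet markers, of a cell type rich in TGF-beta1, summed to 199 to 215, 196 to 216 and 191 to 208 over 5 genes. Melanoma markers summed to 419 to 555, 391 to 646 and 301 to 1167 over 7 genes. Dendritic cell markers summed to 310 to 394, 310 to 419 and 301 to 347 over 6 genes, and fibroblast markers to 286 to 355, 286 to 289 and 259 to 330 over 7. Their part in the Tgfb1 values was not tested.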
